A study of Populus tomentosa with 12 samples.

Results

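A set of 31 genes had higher transcript levels in iron-deficient than in iron-sufficient roots of Populus tomentosa (Chinese white poplar), while their shoot levels overlapped between the iron supplies. The genes were chosen from the measured values by a rule. A gene had to pass the filter on low counts in roots and in shoots, and to average at least 5 CPM over the 6 root libraries. CPM are gene counts scaled to a library of 1000000, with TMM factors (trimmed mean of M values) within each tissue. Its lowest Fe-deficient root library had to lie at least 75% above its highest Fe-sufficient root library, and its Fe groups had to overlap in shoots. Of 42950 listed genes 20269 passed both filters, and 40 of these met the root criteria. The shoot criterion removed 9 of the 40 and left the 31. A further 7 genes met the root criteria but did not pass the filter in shoots, so they are not among the members.

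The plants were micropropagated and then kept in woody plant medium solution with 0 µM Fe (Fe-deficient) or 100 µM Fe (Fe-sufficient). There were 4 groups of 3 libraries: Fe-deficient roots, Fe-sufficient roots, Fe-deficient shoots and Fe-sufficient shoots. All groups came from plantlets of the same stage, raised on a medium with sucrose and the synthetic auxin NAA. The replicates are called biological, but the plants behind each are not named. The p-values therefore set differences between groups against the spread between these libraries, and how far they hold between plants is not known. How long Fe was withheld is not stated in the labels. The titles of the shoot libraries carry the codes WT (Fe-deficient) and CK (Fe-sufficient), whose meaning is not given. Shoot libraries were grouped by their Fe label, and every direction given for shoots depends on it.

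Poplars, like other plants that are not grasses, take up iron from the soil by acidifying the root surface, reducing ferric to ferrous iron with ferric-chelate reductases and importing it through metal transporters. In Arabidopsis thaliana, genes for these steps and for the secretion of iron-binding phenolics are switched on in roots short of iron, under the control of bHLH transcription factors. Shoots, which need iron for chlorophyll synthesis and photosynthetic electron transport, send signals that adjust the root response. The deposited files do not pair gene IDs with names, and none of the 42950 IDs matched the P. tomentosa reference table of 60139 genes (assembly PTv2). None of the 31 genes can therefore be assigned to a step of this pathway here, and the tissue labels could not be checked against marker genes. Members are described by their IDs, levels and profiles.

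Root libraries held 8663523 to 10886552 counts in genes and shoot libraries 5360670 to 6149779. Reads in no gene made up 1.25% to 1.41% of reads assigned to a gene, to several genes or to none in roots, and 49.5% to 50.0% in shoots, so levels set across tissues compare differently assigned libraries. Shoot Fe-sufficient replicate 2 had the lowest mean Spearman correlation to its own group, 0.943 over all tested genes. The other shoot libraries had 0.955 to 0.972. Fe-sufficient shoot replicates 1, 2 and 3 had means of 0.957, 0.943 and 0.955 to their own group. To the Fe-deficient shoot group their means were 0.956, 0.945 and 0.959, so replicates 2 and 3 lay closer to that group. The overlap asked for in shoots is easier to meet with such a group. No member had fewer than 59 counts in any Fe-deficient root library. In Fe-sufficient roots, 30 members had at least 10 counts in every library.

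The mean root level of the 31 genes was 2.28 to 50.4 times as high without Fe as with Fe, with a median of 3.11-fold, and 9 genes reached at least 4-fold. The summed level of all members was 2490, 2906 and 2150 CPM in the 3 Fe-deficient root libraries, against 796, 872 and 540 CPM in the 3 Fe-sufficient ones. In shoots the sums were 3088, 2552 and 2248 CPM without Fe, against 2569, 4081 and 3553 CPM with Fe, and the groups overlapped. The fitted log2 fold change in roots was 1.19 to 5.59 with a median of 1.63, where the median of all tested genes was 0.01. These root values chose the genes and carry no test of them. The root criteria were met by 0.198% of the 23785 genes tested in roots. Just inside the limit of 75% lay Potri.009G043900 with 77.1% and Potri.009G167800 with 77.8%, and just outside lay Potri.014G095300 and Potri.005G216200, each with 74.8%.

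**Figure D1:**
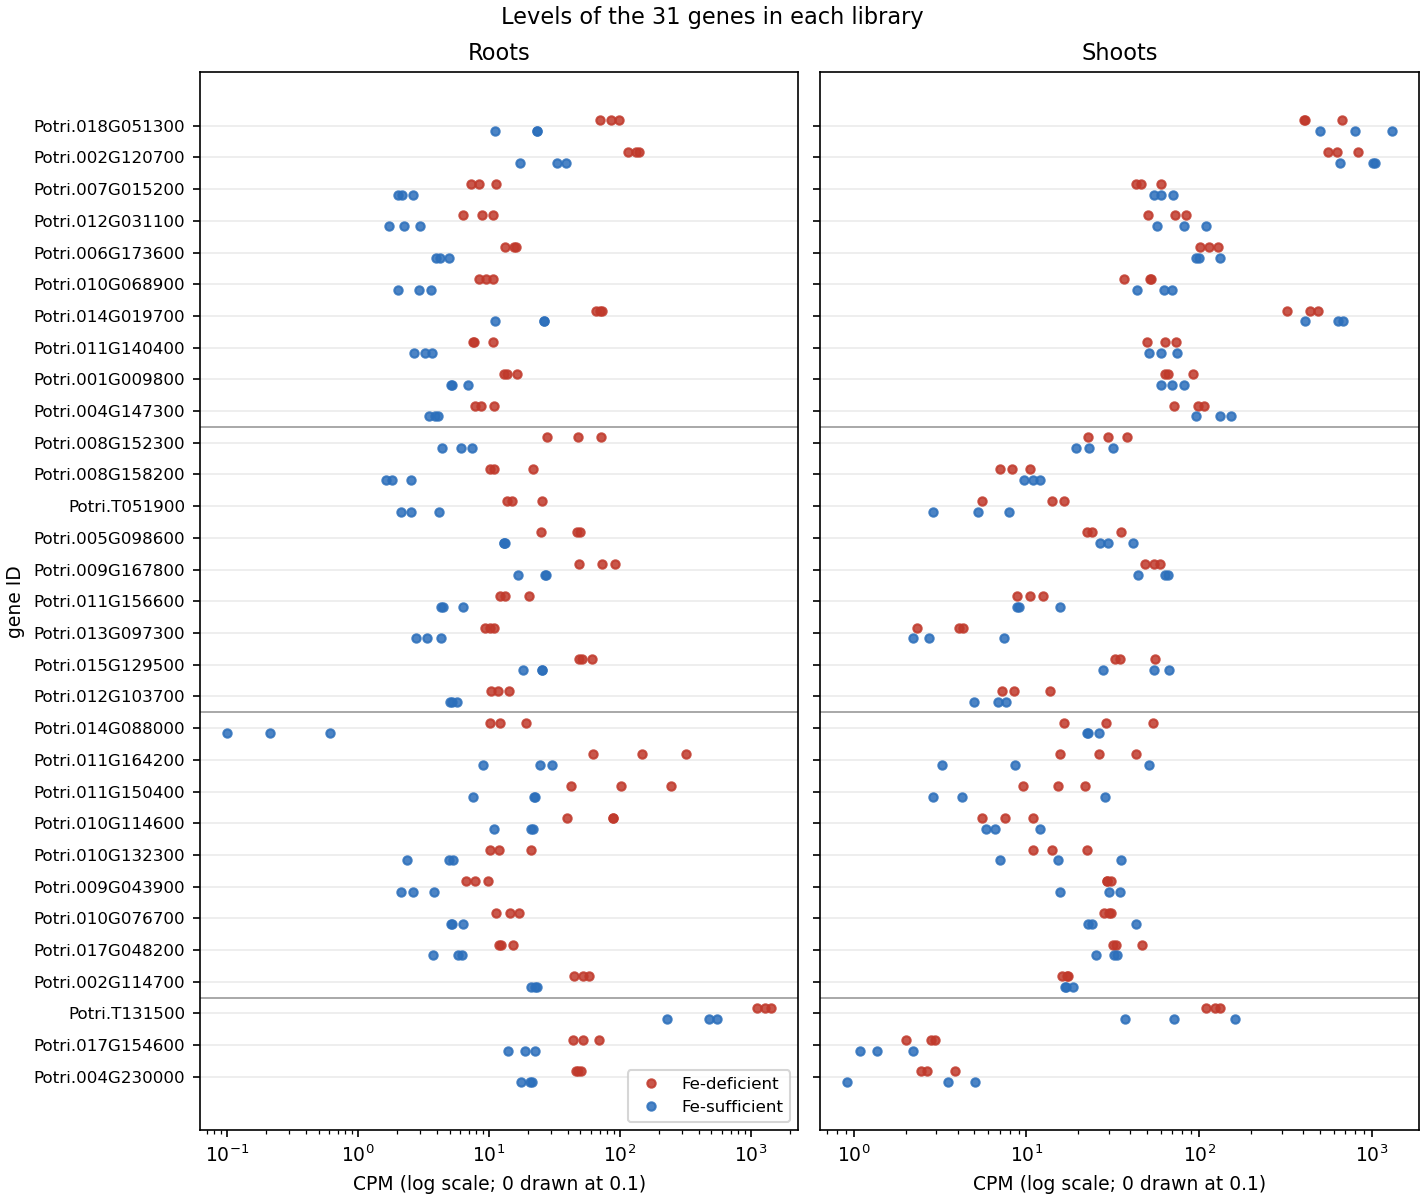
CPM of the 31 genes in each library (log scale), in roots on the left and shoots on the right, with Fe-deficient libraries in red and Fe-sufficient libraries in blue. Lines separate 4 sets by shoot level relative to root level: 10 genes at least 4-fold higher in shoots, 9 whose higher tissue changed with Fe supply, 9 others and 3 at least 4-fold higher in roots. In roots the groups stay apart for every gene, as the rule requires, and in shoots they overlap.

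The members were grouped by their shoot level relative to their root level. The rule's root levels, shoot filter and shoot overlap enter these sets, which were drawn after the values were seen, so their counts and the shares of other genes beside them are descriptions. The largest held 10 genes whose mean level was at least 4-fold higher in shoots than in roots at both Fe supplies. Of all 17282 genes with a mean root level of at least 5 CPM that passed both filters, 4.05% were of this kind. Here and for the sets below, the genes compared were not matched to the members on root level. The median root mean was 10.1 CPM in members, against 27.4 CPM in the genes compared. In these 10 genes the shoot level was 4.95 to 10.1 times the root level in Fe-deficient plants, against 12.3 to 44.9 times in Fe-sufficient plants. They were thus mainly shoot-expressed genes whose root level was higher without Fe. Taken by supply, 10 members were at least 4-fold higher in shoots without Fe (4.55% of the 17282 genes), against 17 with Fe (5.44%). The Fe-sufficient root levels entered the rule as the low side, which works towards the last count.

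Potri.018G051300 reached 86.3, 97.9 and 71.0 CPM in the Fe-deficient root libraries, against 11.1, 23.2 and 23.4 CPM in the Fe-sufficient ones. Its shoot levels were 676, 407 and 402 CPM without Fe, against 498, 1300 and 794 CPM with Fe. In roots all Fe-deficient libraries lay far above all Fe-sufficient ones, while in shoots the fitted direction was the opposite and the groups overlapped. The log2 fold change was 2.14 ± 0.288 in roots and -0.80 ± 0.341 in shoots (SE), the lowest shoot value among members called in roots.

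Potri.002G120700 had 133, 139 and 115 CPM in Fe-deficient roots, against 17.3, 33.2 and 39.0 CPM in Fe-sufficient roots. In shoots it had 833, 629 and 557 CPM without Fe, against 652, 1015 and 1048 CPM with Fe. Potri.014G019700, named after its values were seen, had 73.6, 70.9 and 65.5 CPM in Fe-deficient roots, against 11.1, 26.5 and 26.5 CPM in Fe-sufficient roots. In Potri.018G051300, Potri.002G120700 and Potri.014G019700 alike, Fe-sufficient root replicate 1 was the lowest root library. In shoots, Fe-sufficient replicate 1 was the lowest of its group for each of the 3, and Fe-deficient replicate 1 the highest of its group. Root replicates were numbered in accession order and shoot replicates by title, so equal numbers were not taken to pair libraries.

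The other 7 genes of this set had Fe-deficient root means of 8.60 to 15.0 CPM. Potri.006G173600, named after its values were seen, had 15.6, 13.3 and 16.2 CPM in Fe-deficient roots, against 3.93, 4.98 and 4.20 CPM in Fe-sufficient roots. Its shoot means were nearly level, 114 ± 13.6 CPM without Fe and 109 ± 19.3 CPM with Fe (SD, n = 3 each). Potri.004G147300, also named after its values were seen, was the most shoot-weighted of the 10 in Fe-deficient plants. It had 9.18 ± 1.56 CPM in Fe-deficient and 3.82 ± 0.296 CPM in Fe-sufficient roots (SD, n = 3 each), and 92.4 ± 18.4 and 127 ± 28.5 CPM in the corresponding shoots. The remaining 5 were Potri.007G015200, Potri.010G068900, Potri.012G031100, Potri.011G140400 and Potri.001G009800, whose Fe-deficient root means lay 2.51 to 3.97 times above their Fe-sufficient ones.

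Levels of other shoot-expressed genes in the root libraries were set beside this set. A class of 534 genes nearly restricted to shoots, drawn up with the data in view and holding no member, took 0.437%, 0.465% and 0.491% of gene counts in the Fe-deficient root libraries, against 0.400%, 0.343% and 0.332% in the Fe-sufficient ones. The groups did not overlap, and the mean share was 1.30 times as high without Fe (two-sided exact permutation p 0.1, the smallest that 3 against 3 libraries allow). In the shoots themselves the class took a smaller share of gene counts without Fe, 15.1% ± 0.284 in Fe-deficient and 20.4% ± 2.06 in Fe-sufficient libraries (SD, n = 3 each, same test, p 0.1). Among the 690 genes of the same shoot-weighted kind that are no members, the median log2 fold change in roots was 0.23, 75.9% lay above 0 and 37 (5.36%) reached at least 1. Of the 220 genes of the shoot-restricted class that were tested in roots, 34 (15.5%) reached at least 1. In the 10 members it was 1.26 to 2.14. The difference between Fe-deficient and Fe-sufficient root means came to 5.80% to 14.8% of the Fe-deficient shoot level in the 10 members, which were chosen for that difference. In the 690 genes it had a median of 1.55%, with the 5th percentile at -4.44% and the 95th at 7.58%. For the summed class of 534 it came to 0.702%. That class asks for a shoot mean of at least 20 times the root mean plus 0.5 CPM. Its definition therefore keeps this percentage low, and nothing is read from its distance to the members. The part of shoot-derived RNA in the root levels was not tested.

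A set of 9 genes was higher in roots than in shoots without Fe, and higher in shoots than in roots with Fe. Of genes with a mean root level of at least 5 CPM, 4.67% did the same. A rule that asks for a higher root level without Fe and overlapping shoot levels favours such an exchange, so nothing is read from this count. Without Fe the root level of the 9 genes was 1.24 to 2.86 times the shoot level, and with Fe the shoot level was 1.19 to 5.42 times the root level. Their fitted log2 fold changes in shoots ran from -0.34 to 1.16 with a median of -0.09.

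Potri.008G158200 showed this exchange most widely. It had 10.2, 21.7 and 10.9 CPM in Fe-deficient roots, against 2.55, 1.83 and 1.64 CPM in Fe-sufficient roots. Its shoots held 8.23, 10.4 and 7.02 CPM without Fe, against 9.72, 11.9 and 10.9 CPM with Fe. The lowest Fe-deficient root library was 4.0 times the highest Fe-sufficient one, and every shoot library lay above the Fe-sufficient root libraries.

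Potri.008G152300 had 71.7, 28.0 and 47.8 CPM in Fe-deficient roots, against 6.17, 4.37 and 7.37 CPM in Fe-sufficient roots. Its shoot levels were 22.7, 38.0 and 29.8 CPM without Fe, against 22.9, 19.4 and 31.6 CPM with Fe. The root groups were far apart although the Fe-deficient replicates themselves ranged 2.56-fold, and the log2 fold change in roots was 3.04 ± 0.374 (SE). Potri.008G158200 and Potri.008G152300 carry the same ID prefix and are separated by 61 other listed genes, the fewest between any 2 members.

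Potri.T051900 had 13.8, 25.4 and 14.9 CPM in Fe-deficient roots, against 4.15, 2.13 and 2.56 CPM in Fe-sufficient roots. In shoots it had 14.0, 5.52 and 16.5 CPM without Fe, against 7.89, 2.90 and 5.27 CPM with Fe. Only Fe-deficient shoot replicate 2 fell within the Fe-sufficient range, so this gene met the overlap criterion through 1 library. Its shoot log2 fold change, 1.16 ± 0.445 (SE), was the highest of all 31 (unadjusted p 0.0253, adjusted p by edgeR 0.410). Potri.009G167800, just inside the rule, had 72.5, 48.8 and 92.0 CPM in Fe-deficient roots, against 27.4, 16.6 and 26.6 CPM in Fe-sufficient roots.

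Within this set Potri.005G098600, named after its values were seen, had the most even level with Fe. It measured 49.9, 25.1 and 47.0 CPM in Fe-deficient roots, against 13.0, 13.0 and 13.3 CPM in Fe-sufficient roots, where the highest was 1.03 times the lowest. The other 4, Potri.013G097300, Potri.015G129500, Potri.011G156600 and Potri.012G103700, had Fe-deficient root means 2.28 to 3.01 times their Fe-sufficient ones.

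**Figure D2:**
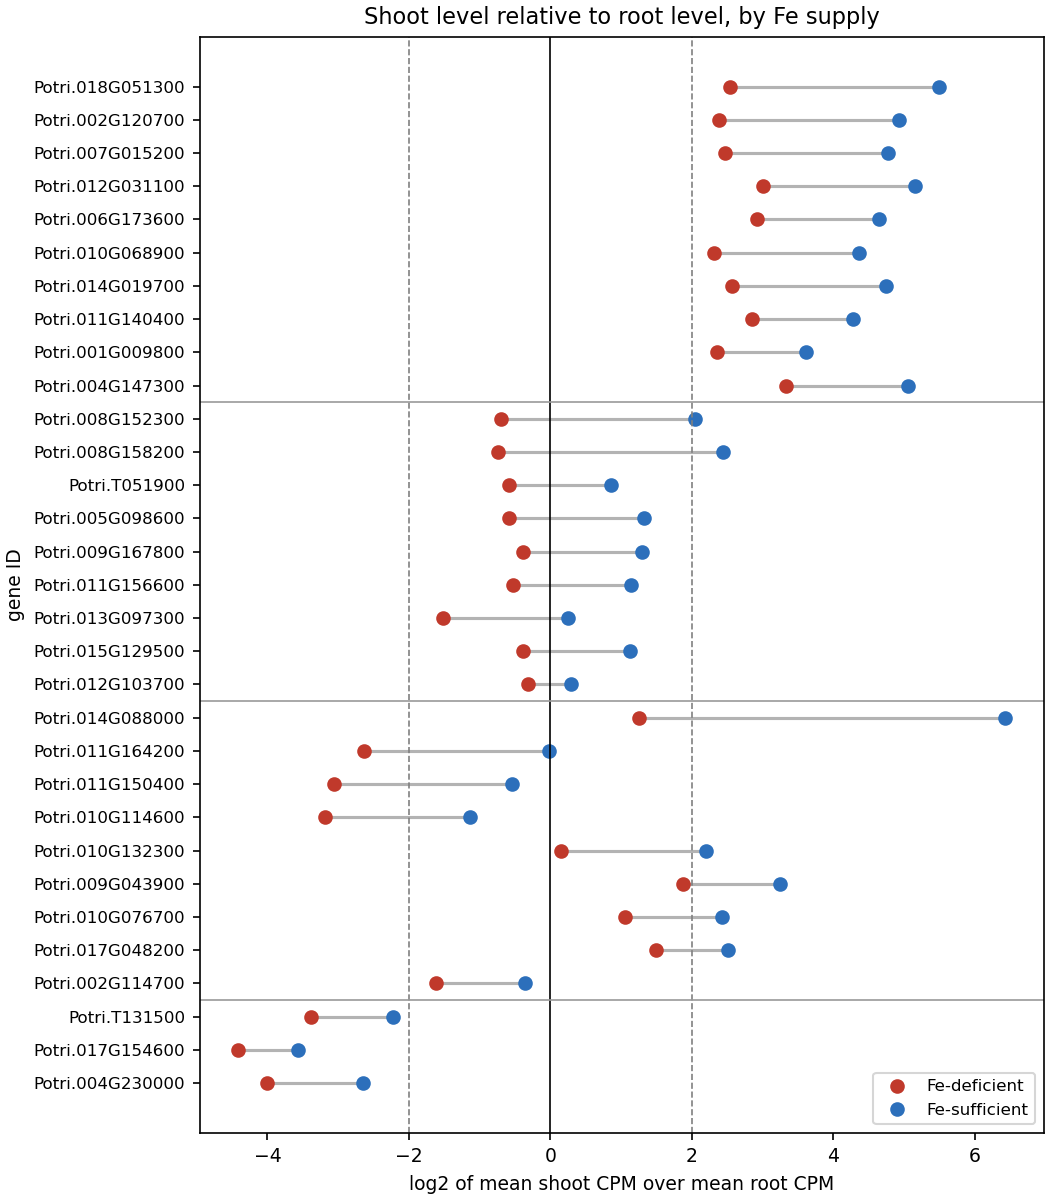
Log2 ratio of mean shoot CPM to mean root CPM for each of the 31 genes, in Fe-deficient plants (red) and Fe-sufficient plants (blue), with dashed lines at 4-fold. Every red point lies left of its blue point, and in the second block from the top the ratios lie on opposite sides of 0.

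A set of 3 genes was mainly root-expressed, at least 4-fold higher in roots than in shoots at both supplies, as were 8.27% of genes with a mean root level of at least 5 CPM. Potri.T131500 had 1278, 1432 and 1119 CPM in Fe-deficient roots, against 481, 552 and 231 CPM in Fe-sufficient roots. Its shoots held 133, 110 and 124 CPM without Fe, against 37.4, 161 and 71.6 CPM with Fe. The overlap in shoots rested on Fe-sufficient replicate 2. With all libraries the shoot log2 fold change was 0.44 ± 0.471 (SE, adjusted p by edgeR 0.896), in a fit that called 1.16% of tested genes. Without that library it was 1.17 (adjusted p by edgeR 0.0198), in a fit that called 2.58%. Leaving out the library that made the overlap sets the groups apart, so no shoot response is read from that call.

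Potri.004G230000 and Potri.017G154600, both named after their values were seen, completed the set. Potri.004G230000 had the closest Fe-deficient root replicates of all 31 genes, with 50.7, 47.6 and 46.0 CPM in Fe-deficient roots, against 20.6, 17.7 and 21.3 CPM in Fe-sufficient roots. Its shoot means were 3.0 ± 0.772 CPM without Fe and 3.17 ± 2.10 CPM with Fe (SD, n = 3 each), from 58 and 51 counts in all. Potri.017G154600 had 43.5, 69.5 and 52.2 CPM in Fe-deficient roots, against 22.5, 18.8 and 13.9 CPM in Fe-sufficient roots. It was 21.3 times as high in roots as in shoots without Fe, against 11.9 times with Fe.

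The other 9 genes fell under none of these kinds. Among them was the gene with the widest separation in roots, Potri.014G088000. It had 12.2, 10.1 and 19.3 CPM in Fe-deficient roots, against 0.213, 0 and 0.614 CPM in Fe-sufficient roots, from 411 and 8 counts over the 3 libraries of each group. In shoots it was well expressed at both supplies, with 54.2, 28.8 and 16.5 CPM without Fe, against 22.4, 22.8 and 26.1 CPM with Fe. It was the only member with a count of 0 in a root library, and its root log2 fold change of 5.59 ± 0.623 (SE) rests on those 8 counts. Leaving out 1 root library, it was 5.02 without Fe-sufficient replicate 2 and 6.89 without Fe-sufficient replicate 3, the extremes of the 6 fits. Its shoot level was 2.39 times its root level without Fe, against 86.3 times with Fe.

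Potri.011G164200 and Potri.011G150400 had parallel profiles and varied most among replicates. Potri.011G164200 had 146, 319 and 62.2 CPM in Fe-deficient roots, against 30.3, 24.4 and 9.01 CPM in Fe-sufficient roots. Potri.011G150400 had 102, 244 and 42.6 CPM in Fe-deficient roots, against 22.5, 22.0 and 7.58 CPM in Fe-sufficient roots. The highest Fe-deficient replicate exceeded the lowest 5.13-fold and 5.73-fold, the widest spreads among the members. For both genes the library numbered 3 was the lowest of its root group at either Fe supply. Equal numbers follow accession order and were not taken to pair root libraries.

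In shoots the same genes also moved in parallel from library to library. Potri.011G164200 had 42.8, 15.6 and 26.4 CPM without Fe, against 8.62, 3.26 and 51.1 CPM with Fe, and Potri.011G150400 had 21.9, 9.51 and 15.1 CPM, against 4.22, 2.90 and 28.7 CPM. Over all 12 libraries the ratio of Potri.011G164200 to Potri.011G150400 stayed between 1.11 and 2.04 as a ratio of CPM, which is not per gene length, while the level of each gene varied far more. Their shoot overlap rested on Fe-sufficient replicate 3. With all libraries the shoot log2 fold change of Potri.011G150400 was 0.39 ± 0.883 (SE, adjusted p by edgeR 0.965). Without that library it was 2.11 (adjusted p by edgeR 0.0379), in a fit that called 1.03% of tested genes. Leaving out the library that made the overlap sets the groups apart, so no shoot response is read from that call. Potri.011G164200 had a shoot log2 fold change of 2.24 without that library and was not called (adjusted p by edgeR 0.177), against 0.44 with all libraries. Whether reads of one can be counted in the other, as between near-identical copies, was not analysed here.

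**Figure D3:**
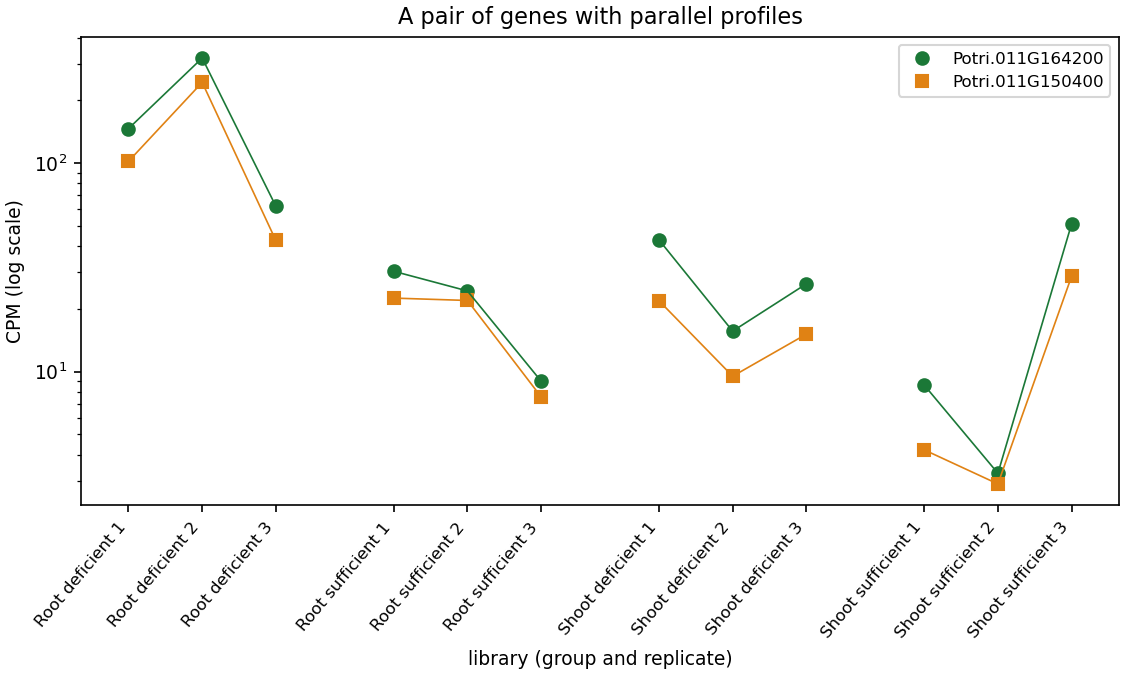
CPM (log scale) of Potri.011G164200 (green circles) and Potri.011G150400 (orange squares) in each of the 12 libraries, with lines joining libraries of 1 group. Both genes are high in the same libraries, with the highest values in Fe-deficient root replicate 2 (319 and 244 CPM) and the lowest in Fe-sufficient shoot replicate 2 (3.26 and 2.90 CPM).

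Potri.010G114600 had 88.8, 39.5 and 88.1 CPM in Fe-deficient roots, against 21.8, 10.9 and 21.1 CPM in Fe-sufficient roots. The library numbered 2 was the lowest at either supply, though equal numbers were not taken to pair libraries. In Fe-deficient roots this was opposite to the high position of replicate 2 for Potri.011G164200. Potri.009G043900, just inside the rule, had 9.86, 6.71 and 7.80 CPM in Fe-deficient roots, against 2.13, 2.64 and 3.79 CPM in Fe-sufficient roots. Potri.002G114700, named after its values were seen, was steady in shoots, with 16.9 ± 0.791 CPM without Fe and 17.4 ± 0.996 CPM with Fe (SD, n = 3 each), while its roots held 51.7 ± 6.60 and 22.2 ± 1.27 CPM. The other 3, Potri.010G132300, Potri.017G048200 and Potri.010G076700, had Fe-deficient root means 2.50 to 3.41 times their Fe-sufficient ones.

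The position of the replicates was then compared across all members. Fe-deficient root replicate 2 was the highest of its group in 17 of the 31 genes, against 30.6% of genes with a mean root level of at least 5 CPM, and the lowest in 9 (33.0% of genes). Replicate 1 was the highest in 8 members (32.8% of genes) and the lowest in 9 (30.1%), and replicate 3 was the highest in 6 (36.7%) and the lowest in 13 (36.9%). The highest Fe-deficient replicate exceeded the lowest by a median of 1.47-fold in members, against 1.31-fold in genes with a mean root level of at least 5 CPM. In Fe-sufficient roots the medians were 1.66-fold and 1.27-fold. These medians were set side by side without matching on level: the median root mean was 10.1 CPM in members, against 27.4 CPM in the genes compared. Of the 31 members 6 ranged at least 2-fold in Fe-deficient roots, against 8.28% of the genes.

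**Figure D4:**
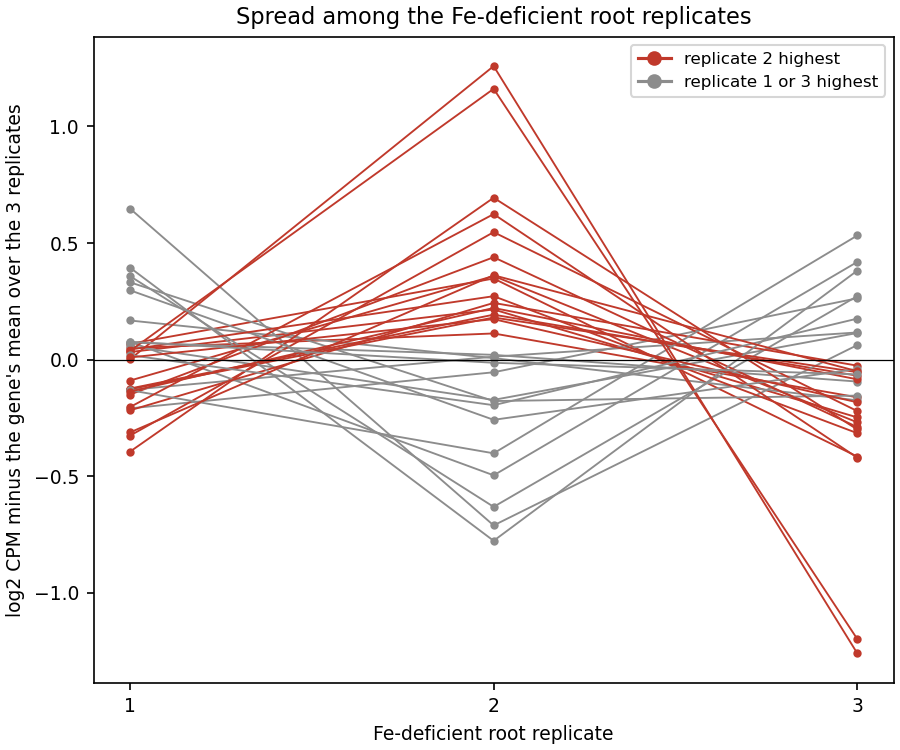
Log2 CPM of each member in the 3 Fe-deficient root replicates, minus the gene's mean over them, with 1 line a gene. Red lines are the 17 genes with replicate 2 highest and grey lines the others; the widest lines, those of Potri.011G164200 and Potri.011G150400, peak in replicate 2.

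The fit of all genes in roots asked how many members stood out from the spread between libraries. It called 16 of the 31 as higher without Fe (quasi-likelihood test of edgeR, threshold of 0.05 on p adjusted over 23785 genes), against 0.193% of all tested genes. The rule used this contrast, so nothing is read from the difference. Adjusted p-values of the members ran from 0.0210 to 0.108, and those of the 15 members that missed the threshold began at 0.0507. Potri.014G088000, Potri.006G173600, Potri.004G230000 and Potri.002G114700 shared the lowest value. The highest were those of Potri.011G150400 (0.108), Potri.010G132300 (0.0956) and Potri.011G164200 (0.0942). DESeq2 called all 31, against 1.84% of the genes it tested in this direction. The calls depended on single libraries. Without Fe-sufficient replicates 1, 2 and 3 in turn, edgeR called 3, 0 and 5 members. Without Fe-deficient replicates 1, 2 and 3 in turn, it called 0, 3 and 1. Of all tested genes it called 0% to 0.108%. All 31 log2 fold changes were above 0 and 31 unadjusted p-values by edgeR under 0.05 each time. The rule kept the root groups apart, so nothing is read from these signs and p-values. With all libraries, 6.96% of tested genes were higher in Fe-deficient roots at an unadjusted p under 0.05.

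In shoots no member passed the threshold by edgeR or by DESeq2, where 1.16% of 21665 tested genes did by edgeR and 2.39% of those tested by DESeq2. An unadjusted p under 0.05 was found in 2 members by edgeR (9.09% of tested genes). By DESeq2 it was found in 4 members, for which the share over all tested genes was not computed. The requirement of overlap limits these calls. The direction in shoots was mixed, with 13 members above 0 (41.9%, against 49.0% of all tested genes) and 18 below. The median log2 fold change was -0.04, against -0.01 for all tested genes. A log2 fold change within 0.5 of 0 was found in 27 members. The overlap criterion favours small shoot changes and the share over all tested genes was not computed, so nothing is read from this count.

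The difference between root and shoot responses was called for 16 members, all with the higher response in roots (quasi-likelihood test of edgeR on all 12 libraries, same threshold), against 0.655% of 25046 tested genes. The rule used both responses, so this too is a description. All 10 shoot-weighted members were among the 16, with log2 differences of 1.26 to 2.95 and adjusted p by edgeR of 0.00364 to 0.0416. The others were Potri.014G088000, Potri.008G158200, Potri.008G152300, Potri.002G114700, Potri.005G098600 and Potri.009G167800. None of the 3 root-weighted genes was called (adjusted p by edgeR 0.251 to 0.482). The share called among all shoot-weighted or all root-weighted genes was not computed, so nothing is read from the contrast between these sets. Potri.004G230000 and Potri.017G154600 had 25 to 58 counts in all per shoot group, and the Fe-sufficient shoot replicates of Potri.T131500 were unequal. A call marks a difference in size between the responses and does not show that a response was confined to roots. For the 15 members without a call, a difference between the tissues is not shown. Of these, 5 were called in roots alone and 10 in neither test. The shares of all genes with these combinations were not computed, so nothing is read from the counts.

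**Figure D5:**
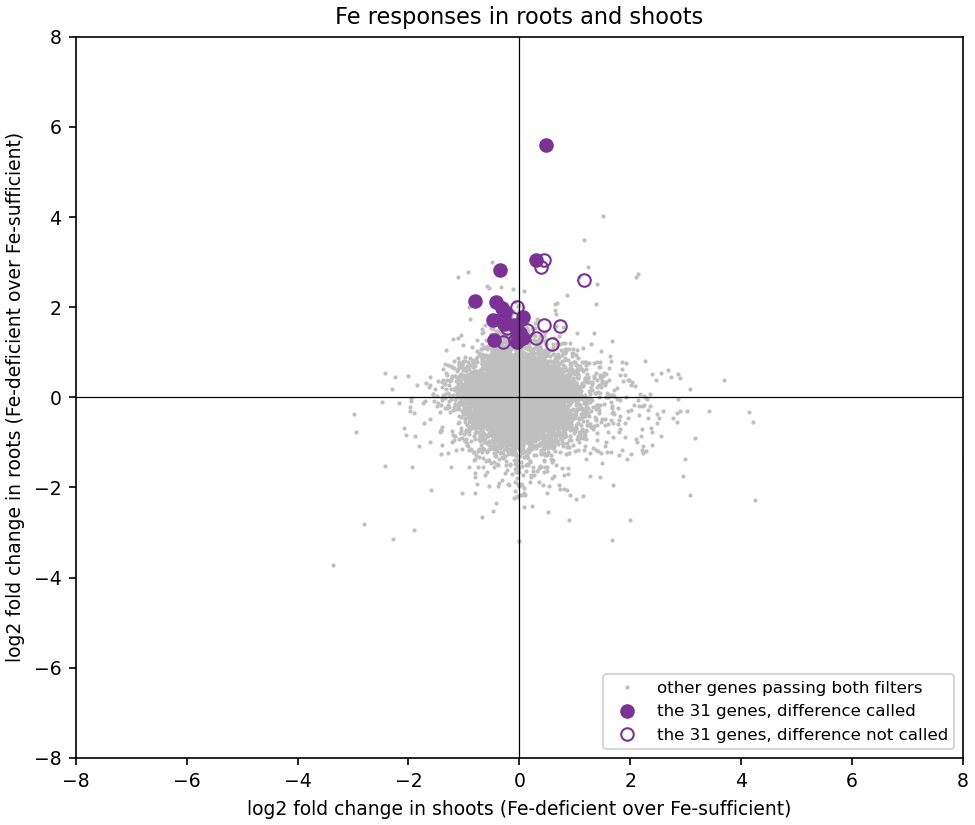
Log2 fold change in roots against log2 fold change in shoots (Fe-deficient over Fe-sufficient) for 20269 genes passing both filters. Filled purple points are the 16 members whose responses differed between the tissues, open purple points the other 15, and grey points all other genes; members lie between 1.19 and 5.59 in roots and between -0.80 and 1.16 in shoots.

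Members were spread over the listed genes. No member was listed next to another. The prefixes 010G and 011G each held 4 members (12.9% of the 31), where they held 7.09% and 3.36% of genes with a mean root level of at least 5 CPM, and no member carried 003G, 016G or 019G. The 4 members with 011G were Potri.011G140400, Potri.011G150400, Potri.011G156600 and Potri.011G164200, whose profiles differed: Potri.011G140400 was shoot-weighted, Potri.011G156600 changed its higher tissue with Fe supply, and Potri.011G150400 and Potri.011G164200 ran in parallel.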

How the data were processed

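RNA of 12 libraries was sequenced. Each deposited file gives unnormalised read counts by gene ID for a library, as the authors made them, and 5 rows of reads given to no gene (58.3% to 64.0% of reads listed in roots, 72.6% to 73.1% in shoots), which stayed out of library sizes and tests. The submitters' processing notes name HISAT2 2.0.5, Trimmomatic 0.36, edgeR 3.16.5 and HTSeq 2.2.1; build, annotation and strand setting are not given there or in the labels, so overlapping or antisense genes cannot be told apart. Root replicates were numbered in accession order, and shoot replicates as in their titles.

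Counts were filtered with filterByExpr (minimum count 10) and scaled with TMM. Contrasts were tested with the quasi-likelihood test of edgeR 4.0.16 (R 4.3.3, robust), with Benjamini-Hochberg adjustment over all tested genes. SEs are the absolute log2 fold change over the square root of F. The code was tested on simulated data. Alternatives were DESeq2 1.42.0, RLE scaling, other filters and thresholds, leaving out each library and a replicate block. Shoot-specific genes averaged at least 10 CPM without TMM in shoots and at least 20 times the root mean plus 0.5 CPM.

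The members and lists were chosen with earlier results of these data known. Named were the 6 members with the highest ratio of lowest Fe-deficient to highest Fe-sufficient root library, the 6 with the highest Fe-deficient root mean, the 2 nearest genes on each side of the ratio, and the called members with the extreme shoot responses. CPM are not per gene length, so they do not rank transcript amounts between genes.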

Additional observations from a re-analysis of the deposited data

Results flagged for a closer look

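The test of the difference itself separated the root response from the shoot response for 16 members, by edgeR on all 12 libraries at an adjusted p under 0.05. The rule had chosen genes for such a difference, so the values are descriptions. The root log2 fold change exceeded that of shoots by 5.09 for Potri.014G088000, 3.17 for Potri.008G158200, 2.95 for Potri.018G051300, 2.75 for Potri.008G152300 and 2.55 for Potri.002G120700. It was 2.30 for Potri.007G015200, 2.19 for Potri.014G019700, 2.15 for Potri.012G031100, 2.05 for Potri.010G068900 and 1.91 for Potri.005G098600. The remaining values were 1.73 for Potri.004G147300, 1.72 for Potri.006G173600, 1.69 for Potri.009G167800, 1.41 for Potri.011G140400, 1.27 for Potri.002G114700 and 1.26 for Potri.001G009800. The size for Potri.014G088000 rests on 8 counts in Fe-sufficient roots.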

How the results depend on the processing

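The set depends on its thresholds: it held 76 and 16 genes with a ratio of at least 1.5 and 2, and 47 and 17 with a mean root level of at least 1 and 10 CPM. Reapplied without 1 library, the rule gave 24 to 77 genes, 23 to 31 of them among the members; a condition on fewer libraries is easier to meet in roots and harder in shoots. Root calls among members were 25 with no filter (0.42% of all tested genes), 26 with 1 fit of all 12 libraries (1.01%) and 31 with DESeq2 (1.84%), against 16 (0.193%), and 0 to 5 without 1 root library (0% to 0.108%). Shoot calls were 0 to 1 without 1 shoot library (0.292% to 2.58%). Calls of the difference were 10 to 16 without 1 library (0.205% to 0.544% of all tested genes), with the lowest count without Fe-deficient shoot replicate 3. All 31 differences stayed above 0, a sign that the rule favours, so nothing is read from it. With the shoot title numbers fitted as a replicate block, 0 members were called (0.619% of all tested genes), as without it (1.16%). At an unadjusted p under 0.05 by edgeR there were 1 and 2 members. Deviations of same-numbered shoot libraries correlated at -0.159, 0.00263 and 0.125, so the numbers were not taken to pair them, and Fe-deficient replicate 1 correlated best with Fe-sufficient replicate 2. Root titles share no numbers. The share of shoot-specific genes in roots stayed 1.25 to 1.38 times as high without Fe without 1 root library, and 1.31 times with a class of at least 50-fold, both chosen after seeing the data. RLE scaling changed none of the 4 counts by over 1.5 times. Depth limits shoot values of Potri.004G230000 and Potri.017G154600 most, with 25 to 58 counts per shoot group.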
